A study of Mus musculus with 8 samples.

Results

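Loss of MLL3 and MLL4 in formative mouse embryonic stem cells was described here through 109976 of the 112137 regions at which acetylation of lysine 27 of histone H3 (H3K27ac) was quantified. A region was taken when the value deposited for formative double knockout (DKO) cells and the value for formative wild type (WT) cells both lay above 0. The quantity is the DKO value minus the WT value of the same region, both on the authors' log2(value + 1) scale. The lowest values that entered were 0.032 in DKO cells and 0.017 in WT cells. The rule left out 2161 regions: 1992 were listed at 0 in DKO cells alone, 155 in WT cells alone and 14 in both. Only 18 of those left out were promoters.

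H3K27ac was profiled by CUT&Tag, in which an antibody directs a transposase to chromatin that carries the mark. The formative DKO libraries are labelled MLL3KO_MLL4KO and the formative WT libraries come from the R1 line, and both were collected 63 h after withdrawal of LIF2i. Naive DKO and naive WT libraries, from cells before that withdrawal, are set beside them only where stated. Each group had 2 libraries prepared independently. The labels name neither the line of the DKO cells nor the number of clones, so a difference between clones and an effect of the genotype cannot be told apart. The columns used hold 1 pooled value per group, so no difference below has a standard deviation or a test. Calls were made at a 2-fold difference, which is 1 on the log2 scale, and in counts of regions or genes "lower" and "higher" mean past it. H3K4me1 and RNA values come from columns of the authors' deposited table whose libraries lie outside the series.

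The genes Kmt2c and Kmt2d encode MLL3 and MLL4, the catalytic subunits of complexes that place H3K4me1 on enhancers. The same complexes are known to bind the acetyltransferases p300 and CBP, which place H3K27ac. When naive cells lose LIF and the inhibitors that hold them, they move to the formative state, in which naive enhancers are shut and those of genes such as Otx2, Pou3f1 and Fgf5 are switched on. The labelled states were checked in the WT libraries by their markers. The authors' DiffBind concentration was higher in formative than in naive WT cells by a median of 1.31 (log2) at 23 genes of a formative list, and differed by -1.88 at 24 genes of a naive list, against 0.59 over all genes. It was higher in formative cells for 15 of 23 formative genes and 4 of 24 naive genes, against 12390 of 18713 genes in all, so the naive list set the states apart and the share of formative genes was that of genes at large. Primitive endoderm and trophoblast markers had medians of 1.44 and 1.80.

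Promoters of the 2 directions differed in CG content over the whole set, so the 200 bases before the annotated start are printed for the first 3 promoters in each direction that had a RefSeq entry (build GRCm38.p6), among those at least 500 bases wide and above the median level with the width effect undone, with every CG dinucleotide in capitals. The 3 with the largest positive difference are
4930505N22Rik promoter, chr19:45997937-45998136, plus strand: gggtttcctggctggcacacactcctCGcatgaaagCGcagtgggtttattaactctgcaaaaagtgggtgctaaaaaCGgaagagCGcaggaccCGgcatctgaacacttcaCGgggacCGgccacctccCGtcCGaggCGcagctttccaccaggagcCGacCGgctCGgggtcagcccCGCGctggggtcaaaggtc
Morn2 promoter, chr17:80290012-80290211, plus strand: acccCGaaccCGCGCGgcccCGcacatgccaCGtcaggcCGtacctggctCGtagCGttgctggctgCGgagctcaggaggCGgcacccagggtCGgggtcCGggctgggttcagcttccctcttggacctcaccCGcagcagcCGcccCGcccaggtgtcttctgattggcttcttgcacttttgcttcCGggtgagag
Vim promoter, chr2:13574111-13574310, plus strand: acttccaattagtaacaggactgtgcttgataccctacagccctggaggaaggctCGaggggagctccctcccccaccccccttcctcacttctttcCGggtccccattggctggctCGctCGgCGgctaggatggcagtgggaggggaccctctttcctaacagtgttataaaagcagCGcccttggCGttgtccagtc
and the 3 with the largest negative difference under the same limits are
Inava promoter, chr1:136234281-136234480, minus strand: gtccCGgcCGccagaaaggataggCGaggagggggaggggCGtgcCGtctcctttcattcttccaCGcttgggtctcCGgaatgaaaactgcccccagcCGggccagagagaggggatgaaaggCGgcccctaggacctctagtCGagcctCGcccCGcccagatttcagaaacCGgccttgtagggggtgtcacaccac
Slc27a2 promoter, chr2:126552824-126553023, plus strand: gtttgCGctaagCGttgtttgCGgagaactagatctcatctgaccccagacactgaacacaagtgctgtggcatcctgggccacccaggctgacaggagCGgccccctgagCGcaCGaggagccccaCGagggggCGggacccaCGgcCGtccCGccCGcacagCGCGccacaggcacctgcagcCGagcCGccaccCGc
Espnl promoter, chr1:91321875-91322074, plus strand: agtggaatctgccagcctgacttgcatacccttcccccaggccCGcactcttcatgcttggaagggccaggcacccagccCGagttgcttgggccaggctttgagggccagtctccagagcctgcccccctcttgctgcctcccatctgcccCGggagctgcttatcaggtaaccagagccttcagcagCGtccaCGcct
These 200 bases hold 15, 17 and 7 CG dinucleotides at 4930505N22Rik, Morn2 and Vim, and 13, 17 and 5 at Inava, Slc27a2 and Espnl. Among the promoters printed here the 2 directions overlap in CG content. The RefSeq rule passed over Mir1968, Mcpt-ps1 and BC024139, whose negative differences were larger than that of Espnl. Their observed over expected CpG ratios in the central 300 bases were low, at 0.13, 0 and 0.18. Espnl had 0.29, while Inava and Slc27a2 had 0.67 and 0.80. Vim, at 0.41, was the lowest of the named promoters with positive differences. The printed set therefore shows more overlap than the named set. Of the 12 promoters the naming rule picked, 9 matched a RefSeq promoter entry.

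Away from promoters, one region of each direction among the 6 largest differences under those limits is shown, both under 1 kb wide: an intronic region of Pvt1, a long non-coding RNA gene beside Myc, and an intronic region of Dclk2, a doublecortin-like kinase gene. The central 200 bases of each are shown from the GRCm38 genome, with the match to the AP-1 motif TGANTCA in capitals for Pvt1, and the 12-base word that recurs most often in capitals for Dclk2.
Pvt1 intron, chr15:62049418-62049617, plus strand: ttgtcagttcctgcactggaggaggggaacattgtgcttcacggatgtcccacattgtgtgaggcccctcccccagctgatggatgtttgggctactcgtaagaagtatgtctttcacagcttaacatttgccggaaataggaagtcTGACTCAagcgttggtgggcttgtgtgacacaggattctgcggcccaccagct
Dclk2 intron, chr3:86910257-86910456, plus strand: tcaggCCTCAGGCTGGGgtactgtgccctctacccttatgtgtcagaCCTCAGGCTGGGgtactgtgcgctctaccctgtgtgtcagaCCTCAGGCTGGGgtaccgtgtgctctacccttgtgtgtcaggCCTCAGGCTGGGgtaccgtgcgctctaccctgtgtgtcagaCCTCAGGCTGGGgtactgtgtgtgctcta
The Dclk2 window is a tandem repeat in which that word stands 5 times. At Dclk2 the H3K27ac value was 7.04 in DKO cells and 12.21 in WT cells, a difference of -5.17. Reads placed in such a repeat can be shared between its copies, so its value is uncertain. At Pvt1 the value was 11.63 in DKO cells and 6.44 in WT cells, a difference of 5.19, and H3K4me1 differed by 0.56.

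The median H3K27ac difference between formative DKO and WT cells was negative over all regions and positive over promoters. The median over all 109976 regions was 7.24 in DKO cells and 8.07 in WT cells, and the median difference was -0.68, with quartiles of -1.66 and 0.22. At the 2-fold threshold 45103 regions were lower in DKO cells, 41.0% of all, and 11903 were higher, 10.8%. Promoters went the other way: at 5519 promoters the median difference was 0.78, with 39.9% higher and 12.2% lower. At the 104457 other regions, called distal here, it was -0.74, with 9.29% higher and 42.5% lower. The promoter median stood 1.52 above the distal median, a difference that a constant scaling factor between the columns cannot change. How the authors scaled the columns to each other is not given in the sources used here. When the DKO column was shifted so that the median region did not differ, 25251 regions were higher and 26915 lower, so that 48.4% of called regions were higher in place of 20.9%. This share was 5.13% after a shift to the promoter median, 22.9% after scaling to equal sums, 48.9% after quantile normalization and 52.7% after a loess offset. The statements that follow therefore rest on a class of regions relative to the others.

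The plot by annotation class shows the other classes below promoters. Beside promoters, regions in 5′ untranslated exons had a median difference of 0.63. Exons and transcription termination sites had -0.48 each, introns -0.66, 3′ untranslated exons -0.73 and intergenic regions -1.09. Of intergenic regions 8.72% were higher and 52.4% lower in DKO cells, and of regions in 5′ untranslated exons 36.6% were higher and 11.5% lower. Levels are not compared between classes here, since the deposited value falls with the square of the width and the classes differ in width.

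**Figure D1:**
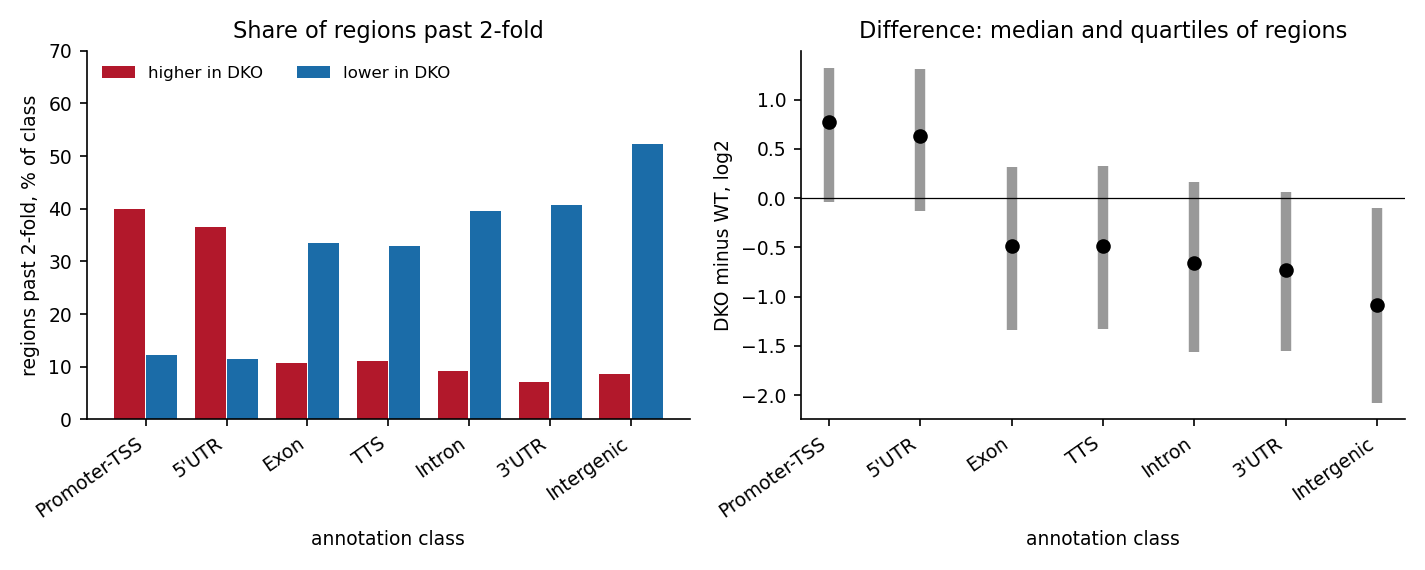
Percent of regions at least 2-fold higher (red) and at least 2-fold lower (blue) in formative DKO than in formative WT cells (left) and the H3K27ac difference DKO minus WT (right, log2; points are medians, bars run between the quartiles) by annotation class. Promoters have 39.9% higher and 12.2% lower, and intergenic regions 8.72% higher and 52.4% lower.

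The difference became more negative with distance from the nearest transcription start site (TSS). Its median was 0.76 within 1 kb, -0.26 from 1 to 5 kb, -0.61 from 5 to 20 kb, -0.82 from 20 to 50 kb, -1.02 from 50 to 100 kb and -1.32 beyond 100 kb. Beyond 100 kb 60.2% of regions were lower in DKO cells, against 12.7% within 1 kb. The order held inside introns and inside intergenic DNA taken alone. Introns within 1 kb of a TSS had a median of 0.80 and those beyond 100 kb -1.28. Intergenic regions had -0.50 from 1 to 5 kb and -1.36 beyond 100 kb. At each distance from 1 kb on, intergenic regions had the more negative median.

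The difference rose with the H3K27ac of a region in naive WT cells. The authors' DiffBind concentration in naive WT cells, taken from libraries that are not part of the contrast, was cut into 5 equal bands. From the lowest to the highest band, the distal median was -1.75, -1.16, -0.66, -0.24 and 0.13, and the promoter median was -1.07, -0.28, 0.43, 0.80 and 1.09. In the lowest band 72.4% of distal regions were lower in DKO cells, and in the highest 17.4%. Promoters lay above distal regions in all 5 bands, by 0.68 in the lowest and 0.96 in the highest. The DiffBind columns cover WT cells alone, and the region set may have been chosen in them. A region of low naive concentration may then be in the table because formative WT cells had it. That choice and a failure to gain the mark cannot be told apart here.

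**Figure D2:**
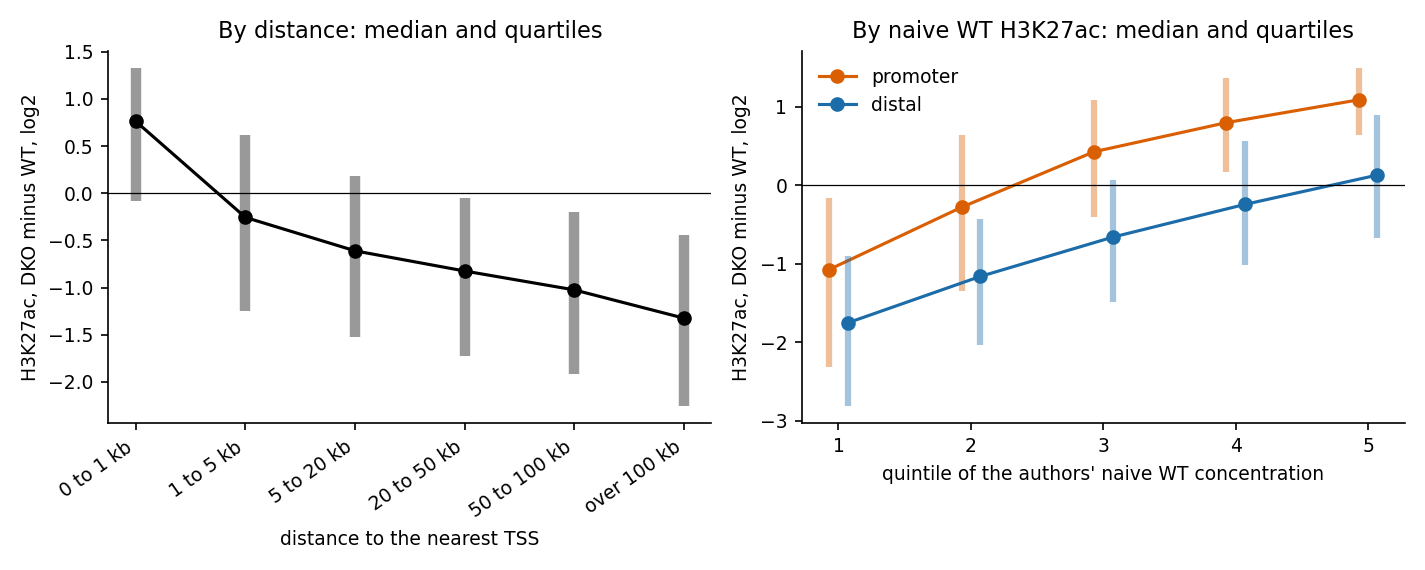
Difference in H3K27ac, formative DKO minus WT (log2), by distance to the nearest TSS (left) and by quintile of naive WT concentration (right, promoters in orange, distal regions in blue); points are medians and bars run between the quartiles. The median runs from 0.76 within 1 kb to -1.32 beyond 100 kb, and promoters lie above distal regions in each of the 5 quintiles.

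The level of a region moved with the difference as well. Regions were split into 5 bands by the mean of their formative DKO and WT values, with the width effect undone. These are the 2 values whose difference is described, so a low DKO value by itself moves a region to a lower band. In the lowest band 82.1% of regions were lower in DKO cells and the median was -2.44. In the highest band 11.0% were lower, 23.8% were higher and the median was 0.26. Promoters and distal regions did not stand apart in the lowest band, at -2.41 and -2.44, and stood 0.93 apart in the highest, at 1.05 and 0.11. Naive concentration separated distal regions in the lowest level band (medians -0.03 for the highest naive band and -2.97 for the lowest) but hardly in the highest level band (0.27 and 0.17, the second from 236 regions). Which part of these patterns belongs to level and which to region class was not tested.

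Distal regions that had lost H3K4me1 in DKO cells also had the lower H3K27ac. H3K4me1 was at least 2-fold lower in DKO cells at 17367 regions, 15.8% of all, and at least 2-fold higher at 11560, 10.5%. At the 17238 distal regions among the first, the median H3K27ac value was 6.71 in DKO cells and 8.17 in WT cells, and the median difference was -1.29. At the 44458 distal regions whose H3K4me1 stayed within 0.5 on the log2 scale it was -0.70, and at 10540 with H3K4me1 at least 2-fold higher it was -0.32. The difference between losing and keeping H3K4me1 was -0.59. It was negative in all 5 bands of naive concentration, from -0.40 in the lowest to -0.63 in the highest. It was also negative in all 5 bands of level, from -0.15 to -0.69, but those bands are built from the values of the contrast itself. Regions with a 4-fold loss of H3K4me1 had -1.78. The order broke at the other end: 1150 distal regions with a 4-fold gain had -0.88, below those with a 2-fold to 4-fold gain at -0.26, and these 1150 had a low median naive concentration of 4.80.

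**Figure D3:**
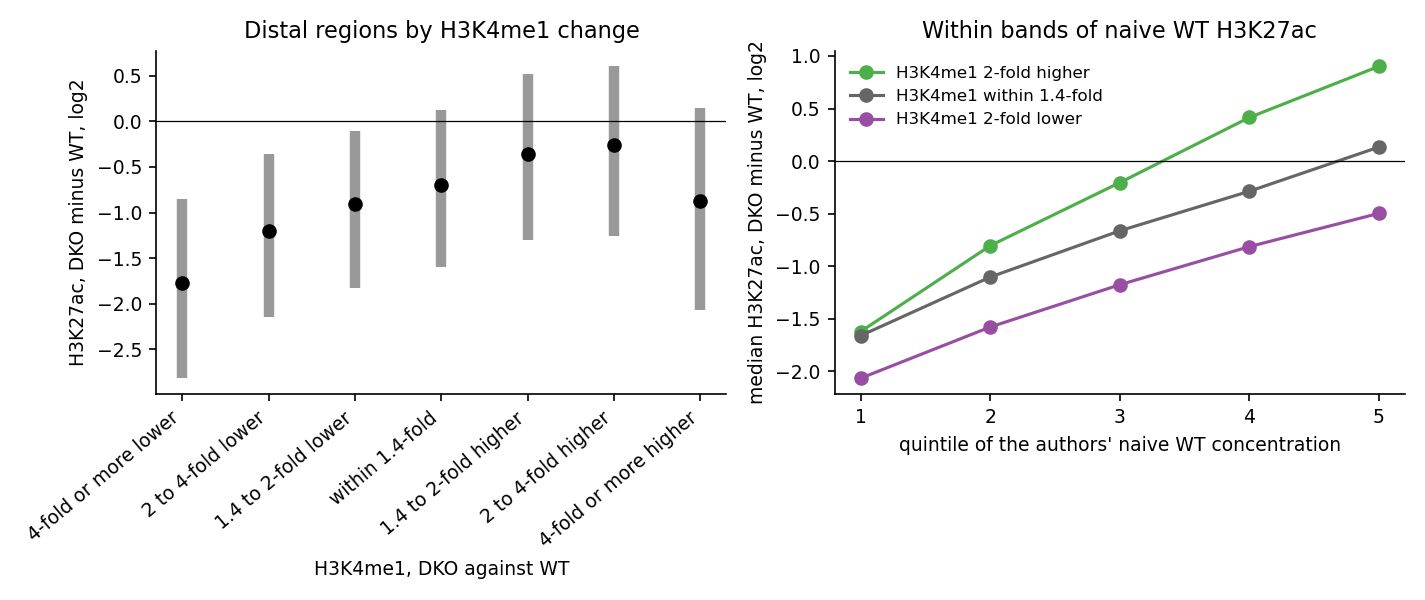
H3K27ac difference at distal regions, formative DKO minus WT (log2), by the H3K4me1 difference of the same regions (left; points are medians, bars run between the quartiles) and by quintile of naive WT concentration for 3 H3K4me1 classes (right; medians). Regions with lower H3K4me1 have the lowest median in every quintile, from -2.06 to -0.50.

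At many distal regions only 1 of the 2 marks passed the 2-fold threshold. With 1 pooled value per group, the part of measurement spread in this was not tested. Of the distal regions with H3K4me1 lower, 58.9% had H3K27ac lower, 37.0% had it within 2-fold and 4.11% had it higher. Over all distal regions these shares were 42.5%, 48.2% and 9.29%. Of those with H3K4me1 lower, 32.1% had an H3K27ac difference at or above the median over all regions. Read from the other mark, of the 44429 distal regions with H3K27ac lower only 22.8% had H3K4me1 lower, against 16.5% of all distal regions. Over distal regions the 2 differences had a Spearman rho of 0.22 (n = 104457 regions) and over promoters 0.30 (n = 5519). Regions are not independent, and both marks share the cell lines. H3K4me1 itself was higher at promoters of DKO cells, with a median difference of 0.66. Only 129 promoters lost H3K4me1 2-fold or more, and their median H3K27ac difference was -1.49.

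Broad distal regions with high naive concentration showed both outcomes side by side at Cdh1, the E-cadherin gene, on chromosome 8. A region at chr8:106624533-106634909 had H3K27ac of 5.72 in DKO cells and 5.86 in WT cells, while H3K4me1 differed by -1.10. The next region, at chr8:106635066-106649034, had H3K27ac of 4.26 in DKO cells and 5.30 in WT cells and an H3K4me1 difference of -1.33. Its H3K27ac difference of -1.05 only just passed the 2-fold threshold, and the distal median of chromosome 8 was -1.24. Cdh1 RNA was 8.76 in DKO cells and 10.61 in WT cells (log2). The other regions that kept H3K27ac while H3K4me1 was lower lay nearest to Sik1, a kinase gene, Btbd11, Eif2b5, a translation initiation factor gene, and Arhgef18, with H3K27ac differences of -0.04, 0.03, 0.14 and 0.10. Those with both marks lower lay nearest to Smarcad1, a chromatin remodeller gene, Sinhcaf, Ndufaf6 and Gm16291, with H3K27ac differences of -1.54, -1.36, -1.44 and -1.01. At Sik1, Btbd11, Eif2b5 and Arhgef18, formative WT values were 3.82, 4.17, 4.79 and 5.67. Naive WT values there were 8.10, 7.98, 8.54 and 6.65, and naive DKO minus WT differences -3.36, -1.82, -2.06 and -0.51. Kept therefore refers to the formative contrast alone. Regions with both marks lower also had formative WT values below naive WT values, with naive differences from -4.82 to -0.96.

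Among strong promoters the largest positive difference was 3.99, at 4930505N22Rik, with 9.75 in DKO cells and 5.76 in WT cells. Morn2 followed with 11.61 in DKO cells and 7.64 in WT cells, and its RNA differed by only -0.28. Vim, which encodes the intermediate filament vimentin, had 9.34 in DKO cells and 5.56 in WT cells at its promoter, and its RNA was 7.95 in DKO cells and 5.48 in WT cells. Both other Vim regions were lower in DKO cells, with differences of -1.18 and -1.68. Slc44a1, a choline transporter gene, Mtfr2, a mitochondrial fission regulator gene, and Pgd, of the pentose phosphate pathway, had promoter differences of 3.51, 3.37 and 3.29. At the negative end, Inava had 7.20 in DKO cells and 10.02 in WT cells. Slc27a2, a fatty acid transport gene, had 4.47 in DKO cells and 7.20 in WT cells. Mir1968, Mcpt-ps1 and BC024139 came next, with differences of -2.61, -2.55 and -2.53. Espnl followed at -2.46, with 5.09 in DKO cells and 7.56 in WT cells. RNA was -0.44 at Inava and -0.37 at Slc27a2, within the 2-fold threshold. After a shift to the promoter median the difference at 4930505N22Rik was 3.21 and that at Inava -3.60. Weaker promoters, below the level limit, could lie further out, such as a Sall2 promoter at -3.14.

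Among strong distal regions the positive end held 2210409E12Rik (9.15 in DKO cells and 3.53 in WT cells), Pvt1, 2 regions near Erdr1 and G530011O06Rik on chromosome Y, 1700108F19Rik and Myof, which encodes a membrane repair protein. Erdr1 lies in sequence that X and Y share, so its reads can be split between copies. The negative end held Dclk2, Olfr1311, 1700010I14Rik, Itpr1, Gm29678 and Zfp93. Repeats made up 72.9% of the Olfr1311 region. Itpr1, a calcium channel gene, had 3.93 in DKO cells and 8.43 in WT cells in an intronic region, with H3K4me1 at -0.94 and RNA at -0.54. All 6 negative distal regions had lower H3K4me1, from -0.43 to -2.53, against a median of -0.06 over all distal regions. Of the 6, 3 passed the 2-fold threshold for that mark, as 16.5% of all distal regions did.

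The deleted genes themselves gave only an indirect check of the labels, since which exons were removed is not given in the sources used here. Kmt2c RNA was 4.30 in DKO cells and 5.21 in WT cells, and Kmt2d RNA was 4.31 in DKO cells and 5.16 in WT cells. All 3 regions of Kmt2c had negative differences, of which 1 passed 2-fold: an intronic region stood at 1.82 in DKO cells and 8.53 in WT cells, while its H3K4me1 differed by -0.10. The Kmt2d promoter had 9.76 in DKO cells and 8.85 in WT cells, within 2-fold.

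Promoters rich in CG dinucleotides had the larger positive differences. In the central 300 bases the median observed over expected CpG ratio was 0.75 at promoters higher in DKO cells, 0.64 at those within 2-fold and 0.27 at those lower. At 3105 promoters with a ratio of 0.6 or more the median difference was 0.99 and 4.09% were lower, against 0.35 and 22.7% at the 2414 others. Rich promoters stood above poor ones in all 5 bands of naive concentration, by 1.13 in the lowest and 0.21 in the highest. Distal regions with a ratio of 0.6 or more had a median of -0.01, against -0.77 for the rest. The regions called distal include 3711 within 1 kb of a TSS, whose median was 0.73. The comparison by CpG ratio was not split by distance, so the part of these regions in it is unknown. Base composition by itself did not follow this order at distal regions, where the median GC content was 48.0% at those higher, 48.3% at those within 2-fold and 49.0% at those lower.

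Short motifs were searched on both strands in the same windows. The KLF/SP motif GGGCGGG stood in 38.2% of promoters higher in DKO cells and in 18.4% of those lower, against 34.8% of all promoters. It contains a CG and so moves with CpG content. At distal regions it stood in 8.31% of those higher and 3.91% of those lower, against 4.52% of all. The AP-1 motif TGANTCA stood in 11.3% of distal regions higher and 8.31% of those lower, against 9.08% of all. The ESRRB motif TCAAGGTCA, bound by a naive-state nuclear receptor, stood in 1.55% of those higher and 0.81% of those lower, against 0.95% of all. The POU octamer, ATGCAAAT, stood in 1.94% and 1.37%, against 1.48% of all. The OTX motif GGATTA stood in 12.1% and 10.4%, against 11.3% of all, and the TEAD motif ACATTCC in 5.52% and 4.43%, against 4.67%. TCF/LEF (ATCAAAG) stood in 3.98% and 4.07%, E-box (CACGTG) in 4.84% and 4.76%, and GRHL (AACCNGTT) in 1.91% and 2.41%. Over all distal regions these 3 had 4.15%, 4.61% and 2.32%. At promoters AP-1, ESRRB and OTX had the other order. They stood in 5.67%, 0.45% and 6.62% of promoters higher and 7.72%, 0.89% and 9.35% of those lower. Over all promoters the shares were 5.45%, 0.56% and 7.01%. POU and TEAD kept the order at promoters, with 1.09% and 2.86% of those higher and 0.89% and 2.82% of those lower. None of these shares was tested or split by distance to a TSS.

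Genes were given the regions within 100 kb of their TSS, and the median over those regions described each gene. Over 18547 genes, 39.5% had a median at least 2-fold lower in DKO cells and 7.19% at least 2-fold higher, and the median gene stood at -0.67. RNA was at least 2-fold lower in DKO cells for 486 of 9737 genes (4.99%) and at least 2-fold higher for 568 (5.83%). The 2 assays have different units and an unknown scaling, so these shares are not compared. At distal regions, 457 genes with lower RNA had a median H3K27ac difference of -1.39 and 6059 genes with RNA within 0.5 had -0.49. The 521 genes with higher RNA had -0.58, no higher than those whose RNA was alike. At promoters the medians were -0.65 for 94 genes with lower RNA, 0.90 for 2271 with like RNA and 1.06 for 117 with higher RNA.

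Read by counts, 67.2% of genes with lower RNA had lower distal acetylation, against 34.7% of all genes with distal regions. Of the genes with lower distal acetylation, however, only 9.87% had lower RNA, against 5.10% of all. For the bands of naive concentration, distal regions were taken singly and not as a median per gene, so a gene can enter more than once. Regions of genes with lower RNA stood below regions of genes with like RNA in all 5 bands. The gaps were -0.62, -0.49, -0.55, -0.84 and -0.86. The promoter difference was also larger where WT cells had more RNA, at 0.42 in the lowest of 5 bands of RNA level and 1.02 in the highest, while the RNA differences of those bands were 0.15 and -0.04.

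The genes with the largest RNA loss showed what this looked like at single loci. Ppp4r4, a phosphatase regulatory subunit gene, had RNA of 1.64 in DKO cells and 4.95 in WT cells, and all 12 of its regions were lower, from -4.78 to -1.90. Pllp, a membrane protein gene on chromosome 8, had 4 of 4 regions lower and RNA of 2.21 in DKO cells and 5.76 in WT cells. Car2, a carbonic anhydrase gene, had 6 of 8 regions lower. Phlda2, an imprinted growth regulator gene, had only 1 of 5 regions lower, although its RNA was 4.36 in DKO cells and 6.98 in WT cells. Among the genes with higher RNA, Gbx2, a homeobox gene of the LIF pathway, had RNA of 5.40 in DKO cells and 1.96 in WT cells, yet 3 of its 5 regions were lower and none was higher. Ccn1 and Ccn2, which encode matrix-associated signalling proteins, had RNA differences of 2.50 and 2.53 and H3K27ac medians of 1.07 and 0.49. Nuak1, a kinase gene, had 2.10 at its promoter and 0.47 at its distal regions.

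Formative pluripotency genes had lower acetylation in DKO cells in a share near that of all genes. Of 23 genes, 11 (47.8%, against 39.5% of all genes) had a median at least 2-fold lower and none at least 2-fold higher, and the list median was -0.97, against -0.67 over all genes. It was -0.29 after scaling to the median region, -0.26 after quantile normalization and -0.08 after a loess offset. RNA was at least 2-fold lower for 3 of 20 genes (Sox3, Wnt8a and Fgf15) and higher for 1 (Tcf15), with a list median of -0.11. Over all genes these shares were 4.99% and 5.83%. Dnmt3b, a de novo DNA methyltransferase gene, had 10 of 11 regions lower, with medians of 5.48 in DKO cells and 8.06 in WT cells. Dnmt3a had 14 of 23 lower, and Dnmt3a RNA was 6.93 in DKO cells and 7.79 in WT cells. Sall2, a zinc finger factor gene, had 6 of 7 lower, and both its promoter regions were among them. The one at chr14:52329132-52329964 had 5.34 in DKO cells and 8.48 in WT cells, and the one at chr14:52315471-52317821 had 6.68 in DKO cells and 8.09 in WT cells. The single Sox3 region, at chrX:60868528-60869047, had 3.04 in DKO cells and 9.49 in WT cells, and Sox3 RNA was 3.94 in DKO cells and 6.27 in WT cells. Pou3f1, a neural and epiblast POU factor gene, had a median of -1.17, and its RNA was 8.86 in DKO cells and 8.39 in WT cells. Fgf5, the classic epiblast marker, had -1.73 from 2 regions that disagreed, at -3.74 and 0.27. Its RNA was 5.40 in DKO cells and 5.82 in WT cells.

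The primed and mesendoderm list had negative medians in both readouts, though not always at the same genes. Of 13 genes with a region, 10 (76.9%, against 39.5% of all genes) had acetylation at least 2-fold lower and none higher, with a list median of -1.52 that was -0.31 after a loess offset. Of the 10 genes with a region and an RNA value, 6 had RNA at least 2-fold lower, against 4.99% of all genes, with an RNA median of -1.44. Of the 7 genes with lower acetylation and an RNA value, 4 had lower RNA: T, Lefty1, Nodal and Wnt3. T, which encodes the mesoderm factor Brachyury, had RNA of -0.31 in DKO cells and 2.92 in WT cells. Its region at chr17:8416189-8416900 had 5.26 in DKO cells and 9.51 in WT cells, and its region at chr17:8429344-8430792 had 6.99 in DKO cells and 8.07 in WT cells. Lefty1, a secreted antagonist of Nodal, had 3 of 3 regions lower, with 5.49 in DKO cells and 7.67 in WT cells at the promoter, and RNA of 4.80 in DKO cells and 6.32 in WT cells. Nodal, the ligand itself, had 7 of 12 regions lower and RNA of 5.25 in DKO cells and 7.02 in WT cells. Wnt3, a Wnt ligand gene of the primitive streak, had 8 of 12 lower and RNA of 2.91 in DKO cells and 4.96 in WT cells. Gsc and Lefty2 had acetylation medians of -1.95 and -1.30 and RNA differences of -0.60 and -0.15, within 2-fold. Hand1 had 5 of 6 regions lower and RNA of 0.36 in DKO cells and -0.85 in WT cells. The other way round, Evx1 and Mixl1 had RNA differences of -2.73 and -1.36 and acetylation medians of 0.73 and -0.37.

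Naive and core pluripotency genes had list medians near 0. The 24 naive genes had a list median of 0.12, with 4 lower and 4 higher (16.7% each, against 39.5% and 7.19% of all genes). Their RNA was at least 2-fold higher for 4 of 20 and lower for none, against 5.83% and 4.99% of all genes. Jam2 had 8 of 12 regions higher, and Klf4 had 3 of 6 higher with a promoter difference of 2.24. Esrrb, a nuclear receptor gene, had a median of 0.43 and RNA of 5.64 in DKO cells and 4.62 in WT cells. Nr5a2 went the other way, with 7 of 12 regions lower and RNA of 4.32 in DKO cells and 4.35 in WT cells. Among 15 core genes 3 were lower and 1 was higher, the higher one being Sox2. Sox2 had 6.46 in DKO cells and 3.96 in WT cells at its promoter and 3 of 4 regions higher, with RNA of 7.82 in DKO cells and 7.01 in WT cells.

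**Figure D4:**
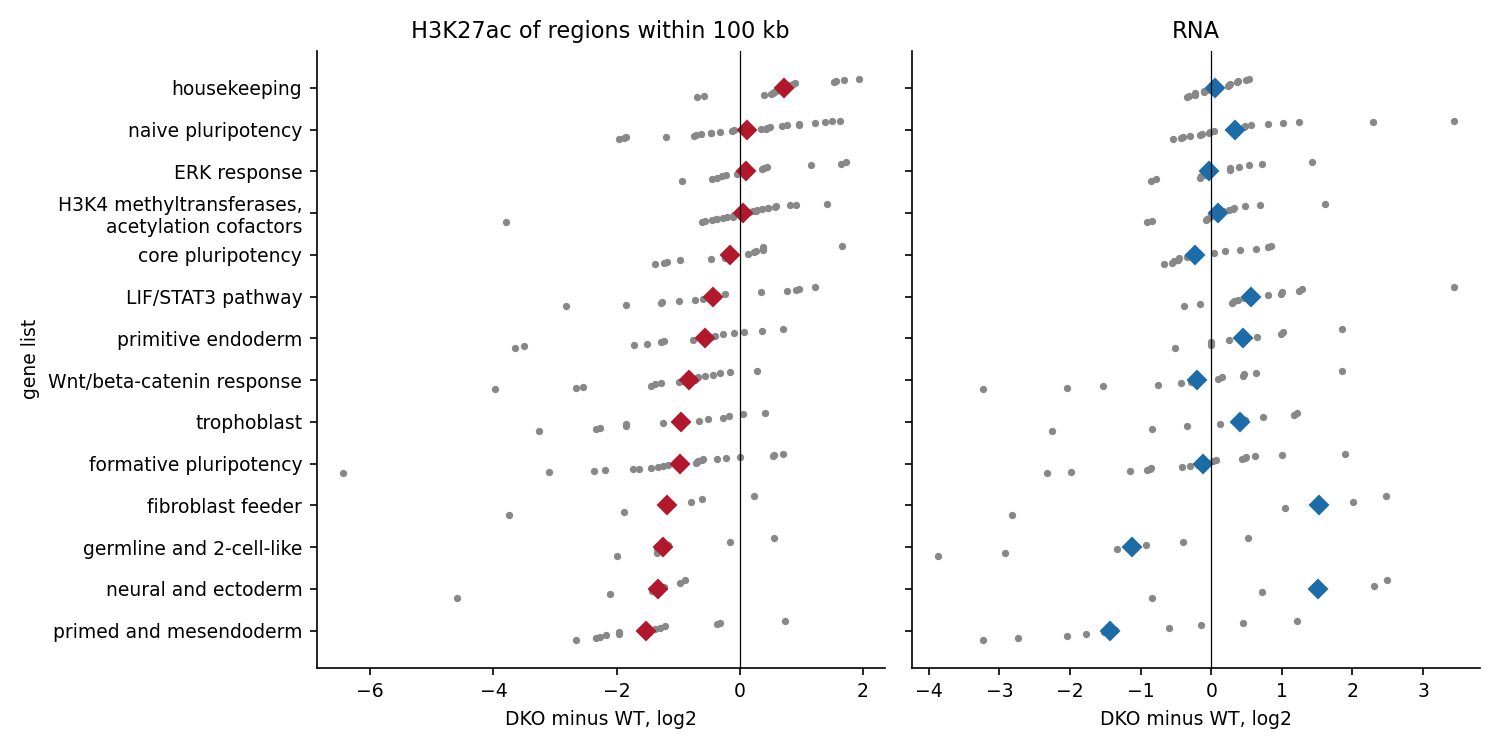
Difference between formative DKO and WT (log2) for each gene of 14 lists: median H3K27ac of its regions within 100 kb (left) and RNA (right); grey points are genes, diamonds list medians. RNA is shown for genes with a region. The primed and mesendoderm list is low in both panels (-1.52 and -1.44), while the neural and ectoderm list is low in H3K27ac (-1.32) and above 0 in RNA (1.51, 4 genes).

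The other lists were described in the same way. ERK response genes, targets of the kinase that drives exit from the naive state, had a median of 0.11, with 3 of 14 higher (21.4%, against 7.19% of all genes) and none lower. Spry2, a feedback inhibitor of that pathway, had 7 of 11 regions higher and RNA of 6.59 in DKO cells and 6.61 in WT cells. Housekeeping genes had 0.72, with 4 of 19 higher (21.1%) and none lower, and cofactor genes of H3K4 methylation and acetylation had 0.06, with 1 of 26 higher and 1 lower. Wnt response genes had -0.82, with 6 of 16 lower (37.5%, near the 39.5% of all genes), among them Nkd1, a Wnt antagonist gene on chromosome 8, with 15 of 15 regions lower. LIF/STAT3 genes had -0.44, with 4 of 16 lower, a smaller share than over all genes, and 1 higher. After a shift to the promoter median the ERK, housekeeping, cofactor and naive medians turned negative, to -0.67, -0.06, -0.72 and -0.66. Under at least 1 of 13 alternatives the core, LIF/STAT3, primitive endoderm, trophoblast and germline medians turned positive, while the formative, primed, Wnt, neural and fibroblast medians stayed negative under all 13. Their values nearest to 0 were -0.08, -0.31, -0.14, -0.07 and -0.42 in that order, so for the formative, Wnt and neural lists the sign is all that held.

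Lists of markers of other cell types had negative acetylation medians, as genes at large did. Primitive endoderm markers had -0.56 (6 of 15 lower), trophoblast markers -0.95 (6 of 12 lower), neural and ectoderm markers -1.32 (4 of 6 lower), fibroblast markers -1.18 (4 of 7 lower) and germline markers -1.25 (4 of 6 lower), and none of these genes was at least 2-fold higher. Over all genes 39.5% were lower and the median was -0.67, so primitive endoderm markers stood at the background. RNA medians over the genes with a region were 0.45 for primitive endoderm (8 genes), 0.41 for trophoblast (9 genes), 1.51 for neural (4 genes), 1.53 for fibroblast (4 genes) and -1.13 for germline markers (6 genes). Sox1, a neural factor gene, had RNA of 5.32 in DKO cells and 2.82 in WT cells with 5 of 6 regions lower. Fibroblast markers Vim and Col1a2 had RNA differences of 2.48 and 2.01, and Thy1 had -2.82. Whether other cell types had a part in these values was not tested.

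The naive libraries allowed the same contrast in cells of the other state. Over 105643 regions above 0 in all 4 columns, 26.3% were lower in naive DKO cells and 19.2% higher, and on the same regions the median was -0.63 in the formative contrast and -0.10 in the naive one. Promoters had 0.79 in the formative and 0.58 in the naive contrast, and distal regions had -0.69 in the formative and -0.15 in the naive contrast. Regions lower in both contrasts numbered 14869. They were 35.8% of those lower in formative cells, against 26.3% of all these regions lower in naive cells. They were 53.4% of the 27829 lower in naive cells, to be read against 41479 of all 105643 lower in formative cells. With 1 pooled value per group, whether the contrasts differ could not be tested. The 2 differences had a Spearman rho of 0.18 over these regions.

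Chromosomes 6 and 8 stood apart from the other autosomes. The median difference was -1.06 on chromosome 6 and -1.21 on chromosome 8, against -0.74 to -0.34 on the 17 others. Promoters had 0.38 on chromosome 6 and 0.10 on chromosome 8, against 0.68 to 1.02 elsewhere. Medians of 10 Mb windows ran from -1.45 to -0.72 on chromosome 6 and from -1.47 to -0.83 on chromosome 8. The 217 windows of the other autosomes with at least 100 regions ran from -1.64 to -0.10, and 34.1% of them lay at or below the highest of chromosomes 6 and 8. The median window was -1.09 on chromosomes 6 and 8 and -0.62 on the others. The naive contrast was low there as well, at -0.48 and -0.45, against -0.16 to 0.15 elsewhere. H3K4me1 medians there, -0.11 and -0.21, lay within the range of the other autosomes, -0.23 to 0.13. The low end of that range came from chromosomes 14 and 17, at -0.23 and -0.21. The next lowest of the others was -0.02, on chromosome 1, so chromosomes 6 and 8 were among the low autosomes for H3K4me1 too. RNA medians of chromosomes 6 and 8, 0.18 and -0.05, lay within the range of the others, -0.16 to 0.18. Without chromosomes 6 and 8 the median over all regions was -0.60 and 38.6% of regions were lower. Gene values on these chromosomes, such as those of Nkd1, Pllp, Cdh1 and Itpr1, share this offset, whose part in them was not tested.

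**Figure D5:**
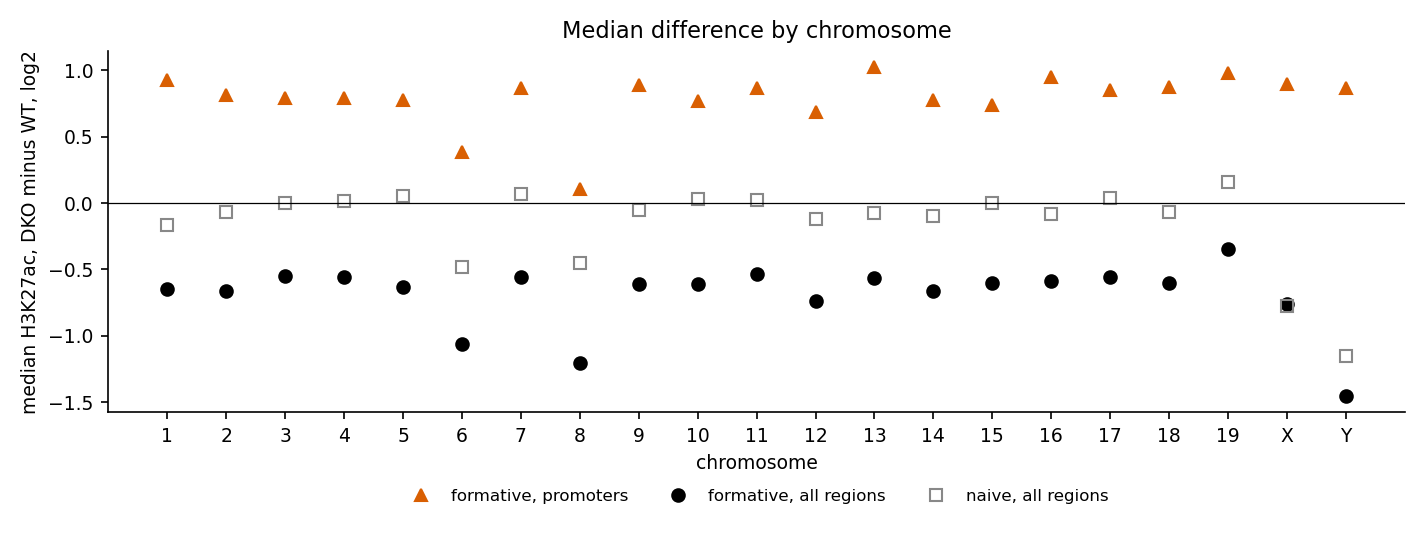
Median H3K27ac difference, DKO minus WT (log2), for each chromosome: promoters in formative cells (triangles), all regions in formative cells (filled circles) and all regions in naive cells (open squares). Chromosomes 6 and 8 lie lowest among the autosomes in all 3 series, at -1.06 and -1.21 for all regions in formative cells.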

How the data were processed

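H3K27ac CUT&Tag was measured in 8 libraries, and the formative contrast uses 4 of them. The build mm10 and the tools deepTools, DiffBind, SEACR, Bowtie2 and Trim Galore are named, without versions, in the submitters' processing notes, and how each was used is not stated there. In the table that the authors deposited, the H3K27ac columns are log2 values, log2(value + 1), pooled over the libraries of a group. In a regression on the deposited DiffBind concentration the width exponent was close to -2, so levels were ranked with both divisions by width undone. H3K4me1 and RNA levels, per the file headers, come from other libraries; their differences equalled the folds the authors deposited. Another 8 level columns of other groups were not used. No column used here gives library totals, so depth is unknown and no interval is printed.

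Differences, medians and counts were computed with pandas 2.3.3 and numpy 2.4.6, loess offsets with statsmodels 0.14.6 (span 0.3), and the code was tested on simulated data. No p-value was computed. A region belongs to the gene the file names as nearest. Named regions were the 6 largest differences in each direction among promoters and among distal regions, 1 per gene, at least 500 bases wide and above the median level; 5 regions each with H3K4me1 lower and H3K27ac kept (within 0.25) or lower, by naive concentration; all regions of Kmt2c and Kmt2d; up to 4 genes per list; and 6 genes in each direction of RNA with 3 or more regions. Other genes named from the lists were chosen after their values were seen. The members, lists and rules were chosen with earlier results of these data known. Lists share genes: Gbx2, Klf4, Klf5, Stat3, Socs3 and Tfcp2l1 are in the naive and LIF/STAT3 lists, T, Wnt3 and Cdx1 in the primed and Wnt lists.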

Additional observations from a re-analysis of the deposited data

How the results depend on the processing

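Quantile normalization and a loess offset on level, in that order, left the promoter minus distal gap at 0.92 and 0.76, the gap between the farthest and nearest distance bins at -1.24 and -0.94, the gap between the highest and lowest naive bands at 0.74 and 0.37, and the H3K4me1 losing minus keeping gap at -0.37 and -0.24. The loess offset gave -0.54 (distal) and -1.23 (promoter) for genes with lower minus higher RNA, and the cause was not tested. Among regions above the median level, a level built from both columns of the contrast, the same 4 gaps were 1.12, -1.61, 0.67 and -0.52. With all 4 columns above 0 they were 1.48 (promoter minus distal), -2.02 (distance) and 1.78 (naive bands). Without the filter on 0 the distance gap was -2.14 and the naive band gap 1.98. The naive band gap was 1.82 at widths of 500 bases or more and 1.91 without chromosomes 6 and 8, a setting chosen after seeing the data. The H3K4me1 gap was -1.08 at a 4-fold loss, -0.41 at a loss of 0.5 and -0.51 within naive bands. The RNA gap at promoters was -3.56 at a 4-fold RNA threshold and -2.30 for genes with RNA above the median; at distal regions it was -1.18 for those genes and -1.02 within 20 kb.

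Regions higher numbered 25251 after median scaling, 3783 after promoter scaling, 21903 after quantile normalization, 19026 after loess, 19227 at 1.5-fold and 2603 at 4-fold. Regions lower numbered 26915, 69914, 22887 and 17080 under those 4 scalings, 10898 above the median level and 20511 at 4-fold. The germline list median was 0.23 above the median level, where fewer regions enter. Each gap named above kept its direction under every alternative run.

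No paired analysis was possible because the columns used hold 1 pooled value per group. Leaving out a replicate was not run for the same reason. Depth per library is unknown.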

Other observations

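Regions listed at 0 in formative DKO cells alone (1992) were narrow, with a median width of 650 bases against 1095 for the regions analysed, so their levels in WT cells are not set against each other. The regions listed at 0 in WT cells alone numbered 155. The H3K4me1 level in WT cells showed only a weak order with the H3K27ac difference at distal regions: from the lowest to the highest of 5 bands the median was -0.91, -0.81, -0.71, -0.60 and -0.67.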
